A study of Mus musculus with 6 samples.

Results

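BTNL2 is a butyrophilin-like membrane protein related to the B7 family, and the question here was what it changed in T cells that already received B7-2. The comparison set 2 arrays of cells grown on anti-CD3, B7-2 and BTNL2 against 2 arrays of cells grown on anti-CD3 and B7-2, which are 4 of the 6 arrays of the study, and took in every gene, 17097 in all. The cells were CD4+ CD25- T cells of female C57BL/6 mice, and the labels name spleen in one field and spleen with lymph nodes in another. Each well of a 12-well plate was coated in 1 ml with the anti-CD3 antibody 2C11 at 2 µg/ml, received the cells and was kept for 4 days with human TGF-beta at 0.36 ng/ml and mouse IL-2 at 10 ng/ml. Both groups carried B7-2-Fc at 3 µg/ml. They differed in the remaining coat, which was BTNL2-Fc at 11 µg/ml in one and control IgG1 at the same dose in the other. The 2 further arrays came from wells with anti-CD3 and control IgG alone and helped to estimate the spread. The groups are called BTNL2 wells, B7-2 wells and anti-CD3 wells below. Cultures were made in duplicate, and the labels do not say that duplicates came from separate animals, so a p-value here measures the spread between these cultures.

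T cells respond to antigen through the T cell receptor with its CD3 chains, and B7-2 (CD86) on an antigen-presenting cell adds a second signal through CD28 or is bound by the inhibitory receptor CTLA-4. Butyrophilin-like proteins resemble B7 proteins in their immunoglobulin folds, and soluble BTNL2 is known to dampen T cell proliferation in culture. TGF-beta together with receptor signals and IL-2 can induce Foxp3, the transcription factor of regulatory T cells, in naive CD4+ cells. Activated T cells also switch to a metabolism with high uptake of glucose and amino acids.

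The values are probe set intensities after RMA (robust multi-array average), given for array 1 and array 2 of a group in that order. Intensities of different genes come from different probes and are not compared with each other. Changes are log2 differences, BTNL2 wells minus B7-2 wells, with the standard error of the limma fit after ±, and a gene was called when its Benjamini-Hochberg adjusted p over all 17097 genes was under 0.05. BTNL2 moved 20.4% of genes past that threshold, 9.52% (1628) upward and 10.8% (1854) downward. At least 2-fold changes made up 5.19% of genes, with 427 (2.5%) higher and 461 (2.7%) lower, and at least 4-fold changes numbered 116 (0.678%) and 113 (0.661%). The total of 3482 fell to 2181 without the first and 2313 without the second B7-2 array and to 2142 without the first BTNL2 array. The arrays of the 2 groups did not overlap for 58.9% of all genes, so a lack of overlap alone says little with 2 arrays a side. The median change of all genes was -0.01 and the median size of a change 0.16 on the log2 scale.

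The large changes lay at middling mean intensities, where a gene low on some arrays and high on others is placed by its mean. When the genes were ranked by mean intensity and divided into 5 classes of equal size, 2.28% of the dimmest class, 32.2% of the middle class, 34.9% of the next and 24.9% of the brightest were called. The middle class held 69 of the genes at least 4-fold higher and 55 of those at least 4-fold lower. In the brightest class the 2-fold changes leaned downward, with 50 genes higher and 79 lower. The 4-fold changes did likewise, with 8 higher and 22 lower. The ranking took the mean over all 6 arrays, most of them without BTNL2. Where the anti-CD3 and B7-2 wells were alike, a fall thus ranked brighter than a rise between the same levels. The lean cannot be told apart from this effect of the ranking. Of the 116 genes raised at least 4-fold, 1 had a B7-2 mean below 5.99, the highest nonspecific control signal on these arrays. Of the 113 lowered genes 0 had a BTNL2 mean below it. Under 12.41, the limit of the filter on dim genes, these numbers were 17 and 18, and the sizes of such changes are uncertain. Adding 16 to every intensity before taking logs shrinks the changes of dim genes, and the sizes of 41 of the 360 genes chosen by rule then moved by over 1.5-fold without a change of direction.

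**Figure D1:**
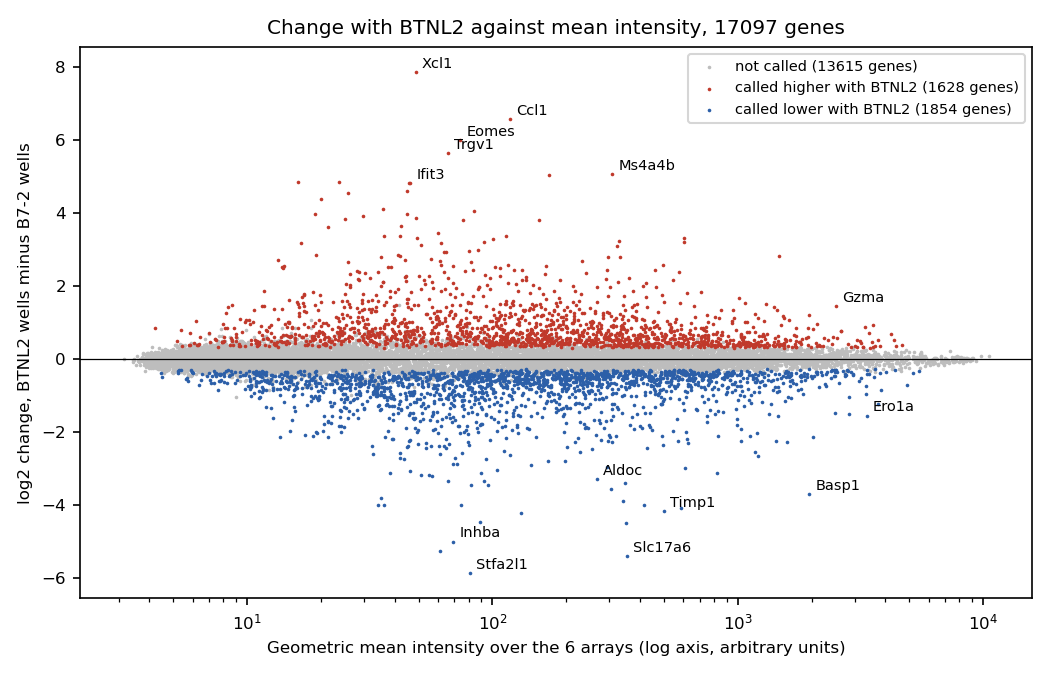
Each point is 1 of 17097 genes, with the geometric mean intensity over the 6 arrays on a log x axis and the log2 change (BTNL2 wells minus B7-2 wells, 2 arrays each) on the y axis. Red and blue points are the 1628 genes called higher and the 1854 called lower. The largest changes, from Xcl1 at 7.85 to Stfa2l1 at -5.88, lie between about the middle and the upper part of the intensity range.

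Genes that were near the lower end of the scale without BTNL2 and bright with it led the rises. The chemokine gene Xcl1, whose product attracts XCR1-bearing dendritic cells, read 7.59 and 6.01 in the B7-2 wells and 1782 and 1363 in the BTNL2 wells (log2 change 7.85 ± 0.16, adjusted p = 3.62e-06). Ccl1, the gene of a CCR8 ligand, read 26.7 and 27.1 in the B7-2 wells and 2886 and 2261 in the BTNL2 wells (log2 change 6.57 ± 0.21, adjusted p = 8.99e-06). Eomes, the T-box factor gene of cytotoxic and memory T cells, read 19.98 and 16.3 in the B7-2 wells and 1337 and 991 in the BTNL2 wells (log2 change 5.996 ± 0.18, adjusted p = 5.55e-06). In all 3 the anti-CD3 wells stayed with the B7-2 wells, at 10.4 and 11.4, 19.02 and 29.9 and 21.1 and 17.7, and only the BTNL2 arrays were high.

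Further down the list of rises stood genes of varied kinds. Drc1, which encodes a dynein regulatory subunit of motile cilia, read 17.04 and 12.1 in the B7-2 wells and 332 and 184 in the BTNL2 wells (log2 change 4.11 ± 0.28, adjusted p = 0.000119). Pdlim4, a gene of a PDZ and LIM domain protein, read 18.2 and 15.4 in the B7-2 wells and 356 and 192 in the BTNL2 wells (log2 change 3.97 ± 0.26, adjusted p = 9.71e-05). In both genes the first BTNL2 array was well above the second, and both were above every other array. Apol7c, an apolipoprotein L family gene, read 8.12 and 12.2 in the B7-2 wells and 131 and 148 in the BTNL2 wells (log2 change 3.81 ± 0.20, adjusted p = 4.04e-05). Calhm6, a membrane channel family gene, differed from these in that the anti-CD3 wells were intermediate: it read 139 and 140.3 there, 15.4 and 16.7 in the B7-2 wells and 286 and 241 in the BTNL2 wells (log2 change 4.04 ± 0.11, adjusted p = 4.76e-06). The Krüppel-like repressor gene Klf3 had 37.7 and 40.6 in the anti-CD3 wells and read 14.6 and 14.2 in the B7-2 wells and 277 and 157 in the BTNL2 wells (log2 change 3.86 ± 0.24, adjusted p = 7.39e-05), and its change was 1.49 after averaging its probe sets.

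The falls took genes from high intensities down to the lower end. Stfa2l1, a stefin gene of cysteine protease inhibitors, read 445 and 357 in the B7-2 wells and 6.25 and 7.29 in the BTNL2 wells (log2 change -5.88 ± 0.14, adjusted p = 4.23e-06). Its relative Stfa3 read 122 and 133 in the B7-2 wells and 21.8 and 26.9 in the BTNL2 wells (log2 change -2.39 ± 0.12, adjusted p = 3.67e-05). Both genes were lower on each BTNL2 array than on any other array, with 187 and 209 and 56.2 and 59.1 in the anti-CD3 wells. Basp1, a membrane-bound protein gene first known from neurons, was among the brightest genes that fell and read 5078 and 4991 in the B7-2 wells and 361 and 414 in the BTNL2 wells (log2 change -3.70 ± 0.10, adjusted p = 5.01e-06). Tspan6, a tetraspanin gene, read 1199 and 1084 in the B7-2 wells and 67.5 and 86.1 in the BTNL2 wells (log2 change -3.90 ± 0.13, adjusted p = 9.87e-06). Tpbg, the gene of the 5T4 surface glycoprotein, read 126 and 134 in the B7-2 wells and 7.71 and 8.34 in the BTNL2 wells (log2 change -4.02 ± 0.11, adjusted p = 4.76e-06), or -2.33 on the log2 scale after averaging its probe sets. In these 3 genes the arrays of the 2 groups were far apart and duplicates were close.

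Several of the falls concerned enzymes and binding proteins of small molecules. Smox, the spermine oxidase gene of polyamine breakdown, read 665 and 688 in the B7-2 wells and 47.99 and 67.7 in the BTNL2 wells (log2 change -3.57 ± 0.16, adjusted p = 2.35e-05). Upp1, the gene of uridine phosphorylase, read 753 and 635 in the B7-2 wells and 63.5 and 67.1 in the BTNL2 wells (log2 change -3.41 ± 0.12, adjusted p = 9.87e-06). Selenbp1, a selenium-binding protein gene, read 792 and 672 in the B7-2 wells and 42.4 and 49.1 in the BTNL2 wells (log2 change -3.999 ± 0.12, adjusted p = 7.43e-06), and here the anti-CD3 wells were the highest at 2237 and 2046. Selenbp2, a close copy of it, had a log2 change of -4.51 ± 0.28, and their probes may share signal. Crabp2, which encodes a carrier of retinoic acid, read 2683 and 2577 in the B7-2 wells and 348 and 576 in the BTNL2 wells (log2 change -2.55 ± 0.22, adjusted p = 0.000311). The metallothionein gene Mt1, which binds zinc and copper, read 4907 and 4974 in the B7-2 wells and 1828 and 2418 in the BTNL2 wells (log2 change -1.23 ± 0.14, adjusted p = 0.00103). Duplicates of Crabp2 and Mt1 differed more in the BTNL2 wells than in the B7-2 wells, and the groups did not overlap.

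**Figure D2:**
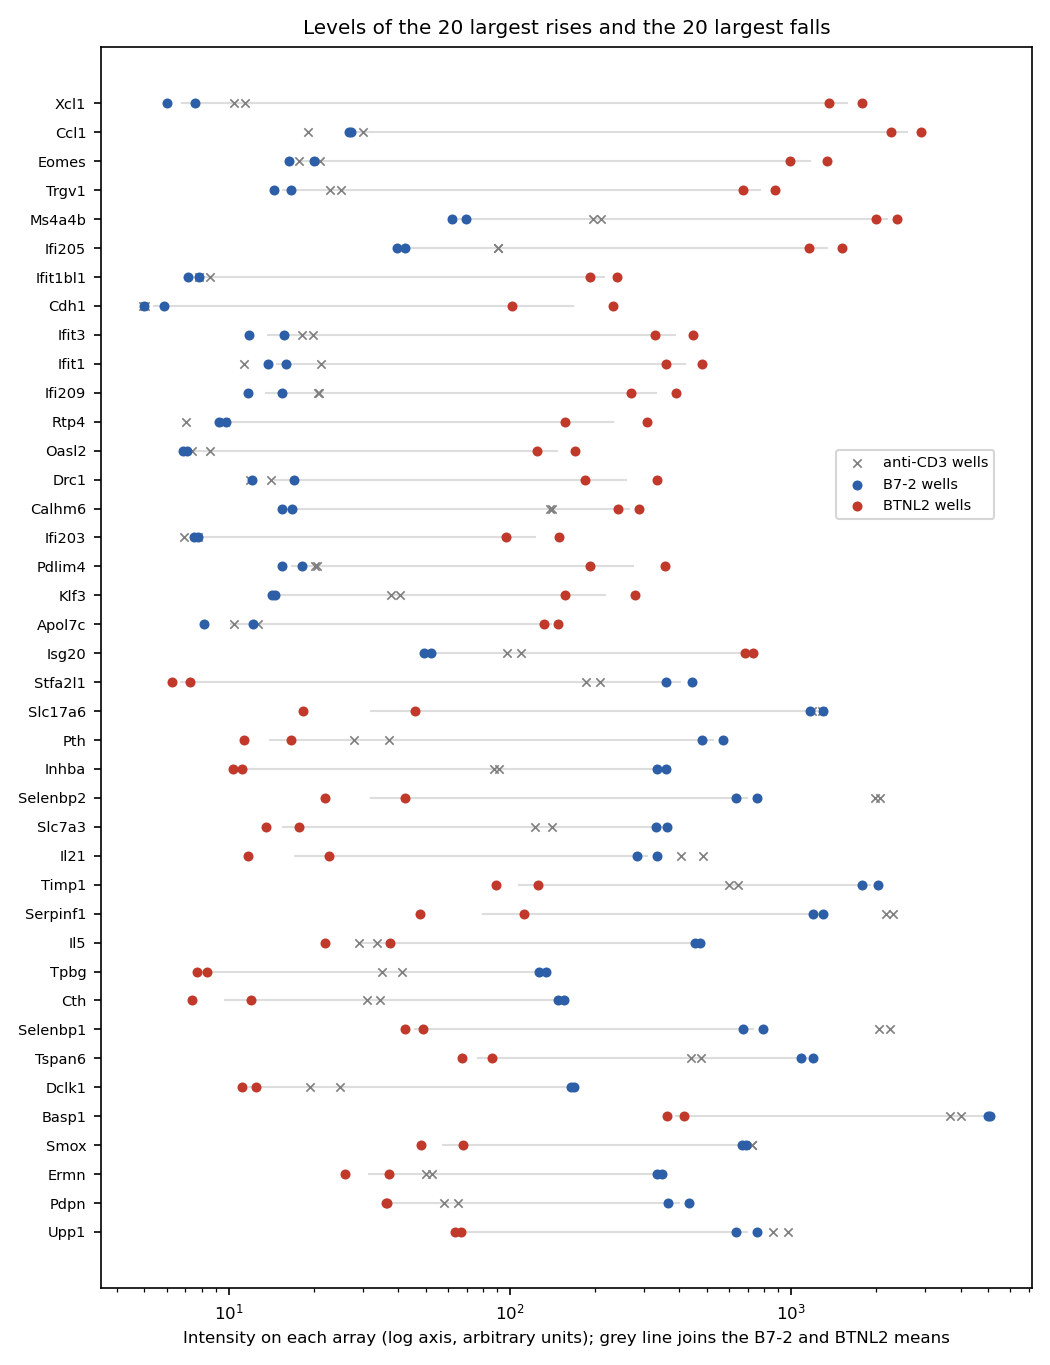
The 6 array intensities (log x axis, arbitrary units) of the 20 genes with the largest rises, from Xcl1 to Isg20, and the 20 with the largest falls, from Stfa2l1 to Upp1. Grey crosses are anti-CD3 wells, blue points B7-2 wells and red points BTNL2 wells, with 2 arrays each, and a grey line joins the B7-2 and BTNL2 means. Red and blue points are apart in every gene, while the crosses lie with the blue points for Xcl1, between blue and red for Calhm6 and above both for Selenbp1.

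Some genes that were bright in all wells also moved. Bcl11b, a transcription factor gene that keeps T cell identity, read 971 and 1109 in the B7-2 wells and 2563 and 2101 in the BTNL2 wells (log2 change 1.16 ± 0.13, adjusted p = 0.000938). Foxp1, a factor of T cell quiescence, read 1269.9 and 1315 in the B7-2 wells and 3249 and 2695 in the BTNL2 wells (log2 change 1.20 ± 0.11, adjusted p = 0.000424). Anxa2 and S100a10, whose products form a complex at the plasma membrane, fell together: Anxa2 read 3816 and 3513 in the B7-2 wells and 1079 and 1522 in the BTNL2 wells (log2 change -1.51 ± 0.16, adjusted p = 0.000774), and S100a10 read 3654 and 3573 in the B7-2 wells and 1728 and 1766 in the BTNL2 wells (log2 change -1.05 ± 0.08, adjusted p = 0.000227). Lilrb4a, an inhibitory immunoglobulin receptor gene, read 3822 and 3530.4 in the B7-2 wells and 1036 and 1621 in the BTNL2 wells (log2 change -1.50 ± 0.19, adjusted p = 0.00194).

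Interferons induce their target genes through STAT and IRF factors that bind the interferon-stimulated response element, whose core is GAAA, 2 bases of any kind, and GAAA again. Of 30 measured interferon-stimulated genes 22 rose and 0 fell (0 lower at an unadjusted p under 0.05), with a median log2 change of 1.09, against 9.52% of all genes higher and a median of -0.01. Of 14 genes of the p200 DNA sensors and guanylate-binding GTPases, 10 rose and 1 fell, with a median of 1.03. The promoters of 5 members are shown because their core motifs can be set beside these values. That of Eomes, which is in neither list, is shown with them as one of the genes raised at least 4-fold that hold the core. Each is the 250 bases before the start of transcription in RefSeq's GRCm38.p6 annotation, written 5′ to 3′ on the gene's strand, with the core in capitals (on the other strand it reads TTTC, 2 bases, TTTC). For Gbp3 the upstream of its 2 annotated starts is shown.
Ifit3 (chr19:34583279-34583528, plus strand): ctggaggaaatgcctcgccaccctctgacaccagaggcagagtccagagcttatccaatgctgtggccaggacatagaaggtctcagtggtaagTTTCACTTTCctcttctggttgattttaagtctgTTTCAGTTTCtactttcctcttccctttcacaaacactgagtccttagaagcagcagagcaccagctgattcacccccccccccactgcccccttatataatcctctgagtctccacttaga
Ifit1 (chr19:34640639-34640888, plus strand): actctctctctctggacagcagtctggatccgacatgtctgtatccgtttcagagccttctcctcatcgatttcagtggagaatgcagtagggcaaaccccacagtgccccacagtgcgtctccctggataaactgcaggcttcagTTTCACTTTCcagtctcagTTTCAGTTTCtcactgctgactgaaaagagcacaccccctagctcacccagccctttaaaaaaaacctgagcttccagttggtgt
Ifi205 (chr1:174031756-174032005, minus strand): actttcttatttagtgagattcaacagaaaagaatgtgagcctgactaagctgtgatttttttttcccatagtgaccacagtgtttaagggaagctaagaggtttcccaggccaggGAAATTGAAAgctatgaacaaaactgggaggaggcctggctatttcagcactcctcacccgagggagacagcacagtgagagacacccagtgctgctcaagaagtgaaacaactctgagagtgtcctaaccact
Gbp7 (chr3:142530086-142530335, plus strand): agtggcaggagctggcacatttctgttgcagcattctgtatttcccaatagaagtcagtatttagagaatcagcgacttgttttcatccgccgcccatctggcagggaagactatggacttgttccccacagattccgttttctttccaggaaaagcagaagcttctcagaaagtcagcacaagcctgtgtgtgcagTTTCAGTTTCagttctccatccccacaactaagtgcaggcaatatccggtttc
Gbp3 (chr3:142559794-142560043, plus strand): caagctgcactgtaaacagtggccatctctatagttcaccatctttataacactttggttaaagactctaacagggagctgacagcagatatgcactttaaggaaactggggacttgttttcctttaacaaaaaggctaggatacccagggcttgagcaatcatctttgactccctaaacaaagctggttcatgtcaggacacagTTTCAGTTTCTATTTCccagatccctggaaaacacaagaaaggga
Eomes (chr9:118477939-118478188, plus strand): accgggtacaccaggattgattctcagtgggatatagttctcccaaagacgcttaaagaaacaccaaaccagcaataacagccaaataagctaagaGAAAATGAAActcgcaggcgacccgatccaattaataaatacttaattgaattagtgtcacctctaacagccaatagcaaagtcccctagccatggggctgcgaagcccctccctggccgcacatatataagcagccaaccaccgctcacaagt

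Over a window of 250 bases before to 50 after the start, 3.59% of 13605 measured genes with a promoter entry held the core, searched on both strands. It was present in 11 of 21 interferon-stimulated genes (52.4%), in 9 of 10 p200 and guanylate-binding genes (90%) and in 15 of 90 genes that rose at least 4-fold (16.7%). Among genes that fell at least 4-fold it was in 4 of 90 (4.44%). These groups are not separate, since Ifit1, Ifit3, Rsad2, Gbp7, Ifi203 and Ifi205 are among the 15 and also in the lists. The copies in Ifit3 begin 156 and 122 bases before the start and those in Ifit1 104 and 85 bases before it. In Gbp3 the 2 copies overlap. A second interferon motif, the GAS element TTCNNNGAA, was in 8.76% of all such promoters and in 14.4% of those of genes raised at least 4-fold. A match describes letters in the window and shows no binding.

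Ifit3, which encodes a protein that binds foreign RNA, read 15.8 and 11.8 in the B7-2 wells and 447 and 327 in the BTNL2 wells (log2 change 4.81 ± 0.19, adjusted p = 1.7e-05). Ifit1, of the same family, read 15.9 and 13.8 in the B7-2 wells and 481 and 358 in the BTNL2 wells (log2 change 4.81 ± 0.29, adjusted p = 6.77e-05). Rtp4, a chaperone gene for receptors, read 9.72 and 9.2 in the B7-2 wells and 307 and 156 in the BTNL2 wells (log2 change 4.53 ± 0.30, adjusted p = 0.0001), and 2.72 after averaging its probe sets. Ifit3, Ifit1 and Rtp4 were low on all 4 arrays without BTNL2. Ifi205, a p200 sensor gene, read 39.5 and 42.1 in the B7-2 wells and 1521 and 1159.6 in the BTNL2 wells (log2 change 5.03 ± 0.14, adjusted p = 4.76e-06), with 90.2 and 90.8 in the anti-CD3 wells. Ifi203 of the same family had a log2 change of 3.97 ± 0.19 (2.18 after averaging its probe sets) and Ifi209 one of 4.60 ± 0.20. Cxcl10, the interferon-induced ligand of CXCR3, read 15.3 and 14.6 in the B7-2 wells and 64.3 and 53.01 in the BTNL2 wells (log2 change 1.97 ± 0.14, adjusted p = 0.000134). In the first list 8 members did not pass, among them Samhd1, a nucleotide phosphohydrolase gene (log2 change -0.15 ± 0.11, adjusted p = 0.396).

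The guanylate-binding genes differed among themselves in their path across the wells. Gbp2 was highest in the anti-CD3 wells at 2875 and 2951 and read 505 and 538 in the B7-2 wells and 1472 and 1444 in the BTNL2 wells (log2 change 1.48 ± 0.09, adjusted p = 6.35e-05). The BTNL2 arrays were thus above the B7-2 arrays and below the anti-CD3 arrays. Gbp3 and Gbp7 had log2 changes of 1.74 ± 0.11 and 2.42 ± 0.13. Gbp3 read 818 and 834 in the anti-CD3 wells and 749 and 632 in the BTNL2 wells. Gbp7 was highest in the BTNL2 wells at 1099 and 876, with 544 and 541 in the anti-CD3 wells. Gbp4, whose call did not survive the loss of any 1 B7-2 or BTNL2 array, was -0.35, and Igtp, an immunity-related GTPase gene, was 0.32 and missed the threshold (adjusted p = 0.0526). Closely similar copies within the Ifit, p200, Gbp, granzyme, stefin, Ly6 and Klr families can share probe signal, so single members of these families are uncertain.

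The signalling genes upstream of these targets moved less and in both directions. Of 28 genes of interferon and JAK-STAT signalling, 11 were called higher and 5 lower, with a median of 0.15. Without the second B7-2 array or without the first BTNL2 array the higher count was 7, and the lower count was 3 without either B7-2 array or without the first BTNL2 array. Irf7, the factor that amplifies type I interferon production, read 29.5 and 25.9 in the B7-2 wells and 131 and 132 in the BTNL2 wells (log2 change 2.25 ± 0.10, adjusted p = 2.2e-05). Stat4, the signal transducer of IL-12, read 757 and 742 in the B7-2 wells and 1628 and 1891 in the BTNL2 wells (log2 change 1.23 ± 0.10, adjusted p = 0.000262). Ifngr1, a chain of the receptor for interferon gamma, read 88.1 and 90.2 in the B7-2 wells and 181 and 192 in the BTNL2 wells (log2 change 1.07 ± 0.10, adjusted p = 0.000459). The kinase genes diverged: Jak1 rose by 0.74 ± 0.09 and Jak2 and Jak3 had log2 changes of -0.61 ± 0.09 and -0.82 ± 0.12, both called. The feedback inhibitor gene Socs3 fell, at -0.62 ± 0.09.

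Genes of MHC class I presentation rose in small steps. Of 16 measured, 9 were higher and 1 lower, with a median of 0.36, or 14 higher under a variance prior that follows intensity. The higher count was 6 without the second B7-2 or the first BTNL2 array, and 0 were lower without the first B7-2 or the first BTNL2 array. Nlrc5, the transactivator of class I genes, read 1382 and 1475 in the B7-2 wells and 2754 and 2395 in the BTNL2 wells (log2 change 0.85 ± 0.10, adjusted p = 0.00136). Tapbp, which encodes the peptide-loading protein tapasin, read 2417 and 2471 in the B7-2 wells and 4499 and 4467 in the BTNL2 wells (log2 change 0.88 ± 0.08, adjusted p = 0.000463). Duplicates of Tapbp differed by far less than the groups. The proteasome subunit gene Psmb10 had a log2 change of 0.63 ± 0.09 and the peptidase gene Erap1 one of 0.58 ± 0.08.

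**Figure D3:**
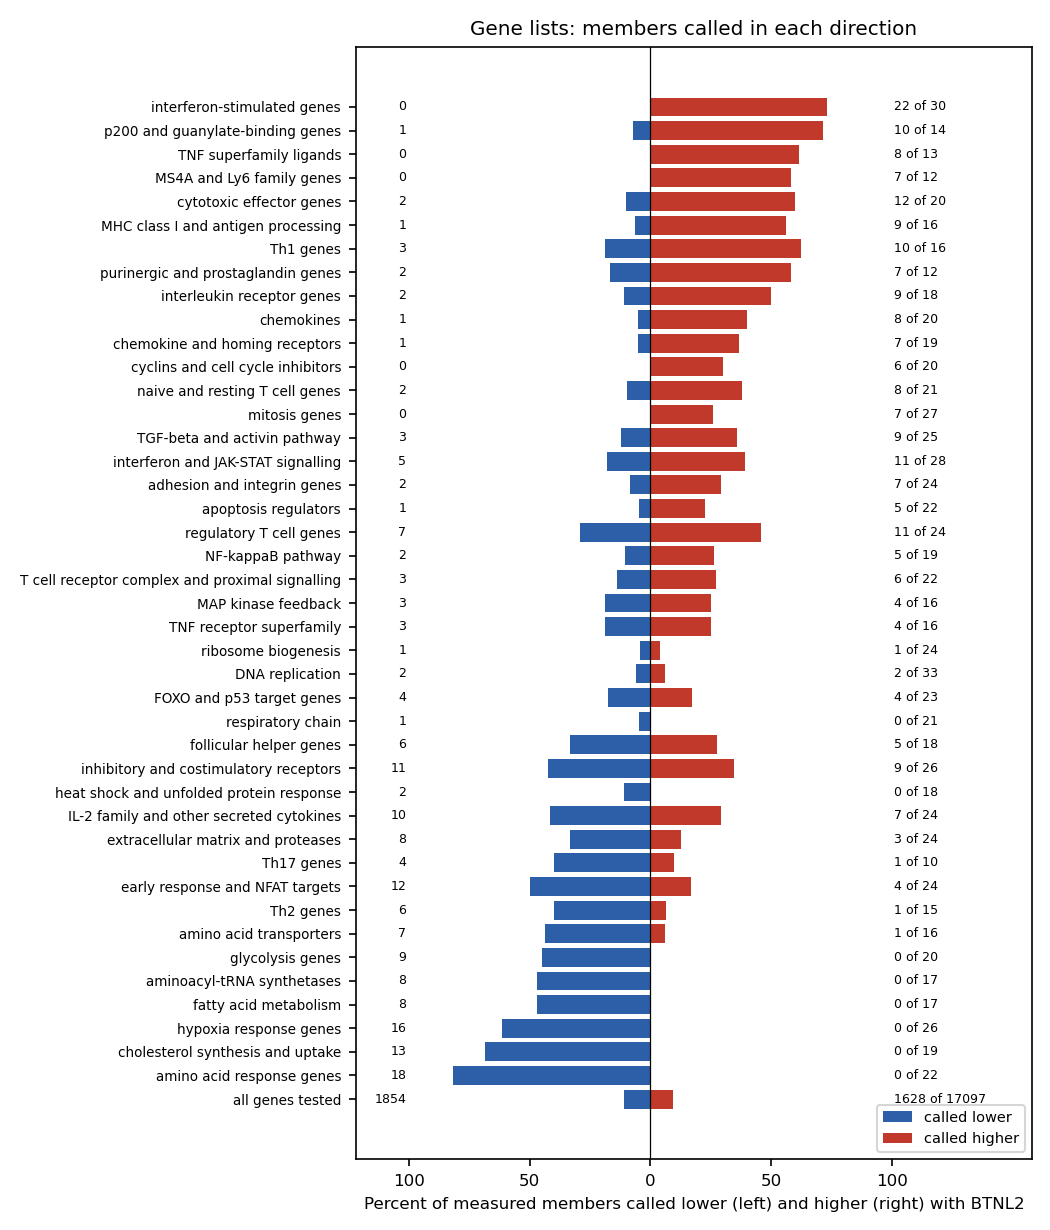
For each gene list other than the cell type markers, bars to the left give the percent of its measured members called lower with BTNL2 and bars to the right the percent called higher, with the counts at the margins. The lowest bars are all 17097 genes, of which 10.8% were lower and 9.52% higher. Interferon-stimulated genes (22 of 30 higher) stand at one end of these lists and amino acid response genes (18 of 22 lower) at the other.

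Genes that cells switch on when oxygen is short fell in the BTNL2 wells. The factor HIF-1 binds the core ACGTG of the hypoxia response element, and its targets serve glucose uptake, vessel growth and redox balance. It is also active in T cells with strong receptor signals at normal oxygen. Of 26 measured hypoxia genes, 0 rose (1 at an unadjusted p under 0.05) and 16 fell, 11 of them at least 2-fold, with a median log2 change of -0.72 against -0.01 for all genes and 10.8% of all genes lower. Leaving out any 1 array gave 14 to 18 falls. Promoters of 2 members are shown, with the core in capitals (CACGT on the other strand).
Egln3 (chr12:54203875-54204124, minus strand): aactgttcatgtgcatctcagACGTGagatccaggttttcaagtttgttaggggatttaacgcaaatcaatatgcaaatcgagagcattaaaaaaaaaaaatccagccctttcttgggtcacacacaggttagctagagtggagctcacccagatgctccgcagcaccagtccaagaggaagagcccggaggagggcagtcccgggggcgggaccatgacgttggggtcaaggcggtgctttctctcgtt
Ero1a (chr14:45318573-45318822, minus strand): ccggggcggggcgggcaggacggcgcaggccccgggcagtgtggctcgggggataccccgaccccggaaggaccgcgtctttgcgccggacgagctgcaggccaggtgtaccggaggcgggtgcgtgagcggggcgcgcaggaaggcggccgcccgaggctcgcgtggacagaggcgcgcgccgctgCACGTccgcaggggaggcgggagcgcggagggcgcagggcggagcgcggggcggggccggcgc

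The core ACGTG is short and was in 26.1% of the 13605 promoters, in 14 of 20 hypoxia genes (70%), in 28.9% of genes lowered at least 4-fold and in 16.7% of those raised at least 4-fold. Egln3, which encodes an oxygen-sensing prolyl hydroxylase, read 2145 and 2142 in the B7-2 wells and 638 and 828 in the BTNL2 wells (log2 change -1.56 ± 0.13, adjusted p = 0.000273). Ero1a, the oxidase gene of disulfide formation in the endoplasmic reticulum, read 4936 and 4676 in the B7-2 wells and 1536 and 1726 in the BTNL2 wells (log2 change -1.56 ± 0.10, adjusted p = 7.39e-05). The anti-CD3 wells lay close to the B7-2 wells for both, at 1982 and 1978 and 4781 and 4855, and only the BTNL2 arrays were low. Ndrg1, a stress-induced cytoplasmic protein gene, read 826 and 763 in the B7-2 wells and 144 and 167 in the BTNL2 wells (log2 change -2.36 ± 0.11, adjusted p = 2.88e-05). Vegfa, the vascular endothelial growth factor gene, read 80.3 and 77.2 in the B7-2 wells and 24.7 and 25.9 in the BTNL2 wells (log2 change -1.64 ± 0.10, adjusted p = 6.35e-05). P4ha2, a collagen prolyl hydroxylase gene, read 63.05 and 56.1 in the B7-2 wells and 12.6 and 20.3 in the BTNL2 wells (log2 change -1.89 ± 0.21, adjusted p = 0.000889). Ndrg1 and P4ha2 were higher in the anti-CD3 wells than in the B7-2 wells and lowest with BTNL2, and Vegfa was intermediate in the anti-CD3 wells at 57.2 and 51.2. The gene of the factor itself, Hif1a, which is named here after its value was seen, had a log2 change of -0.42 ± 0.09 (adjusted p = 0.0144). Higd1a, a mitochondrial member, did not pass (log2 change -0.32 ± 0.11, adjusted p = 0.0782).

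Glucose handling fell in part. Of 20 glycolysis genes 0 rose (0 at an unadjusted p under 0.05) and 9 fell, with a median of -0.36. Without the first B7-2 array 5 fell, whereas a variance prior that follows intensity gave 16 falls and adding 16 before taking logs gave 14. Slc2a3, the gene of the glucose transporter GLUT3, read 2916 and 3025 in the B7-2 wells and 563 and 787 in the BTNL2 wells (log2 change -2.16 ± 0.15, adjusted p = 0.000135), or -1.54 after averaging its probe sets. Aldoc, an aldolase isoform gene, read 413 and 358 in the B7-2 wells and 28.2 and 54.7 in the BTNL2 wells (log2 change -3.29 ± 0.27, adjusted p = 0.000277), or -1.99 averaged likewise. Eno2, an enolase isoform gene, read 187 and 208 in the B7-2 wells and 76.6 and 67.2 in the BTNL2 wells (log2 change -1.46 ± 0.11, adjusted p = 0.00015). In these 3 the anti-CD3 wells had the highest intensities, at 4164 and 4132, 1229 and 1270.5 and 438 and 418, and the BTNL2 wells the lowest. Hk1, the hexokinase of the first step, had a log2 change of -0.69 ± 0.09. Gapdh, which catalyses a central step, read 9539 and 9558 and 8973 and 9182 in the 2 groups and did not pass (log2 change -0.07 ± 0.08, adjusted p = 0.609).

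**Figure D4:**
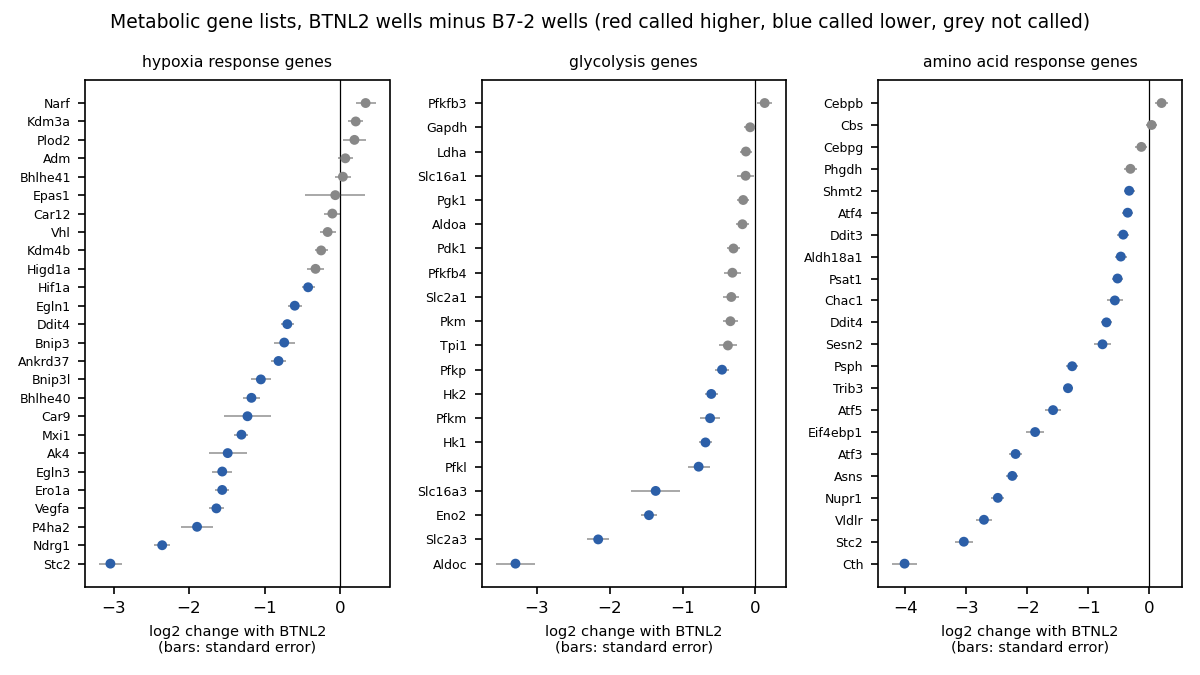
The log2 change with BTNL2 (x axis, bars are the standard error of the limma fit over 2 arrays a group) of each measured gene in 3 lists: 26 hypoxia response genes, 20 glycolysis genes and 22 amino acid response genes. Blue points were called lower and grey points not called. The falls reach -3.04 for Stc2, -3.29 for Aldoc and -4.01 for Cth, and 0 members were called higher.

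When amino acids run short or the endoplasmic reticulum is stressed, the factor ATF4 switches on synthesis enzymes, transporters and tRNA synthetases through the amino acid response element TGATGNAA. The genes of this response fell in the BTNL2 wells. Of 22 measured, 0 rose (0 at an unadjusted p under 0.05) and 18 fell, 10 of them at least 2-fold, with a median of -0.73. Leaving out 1 array gave 13 to 16 falls. The element was in 6 of 20 promoters of the list (30%), in 10% of genes lowered at least 4-fold, in 3.33% of those raised as much and in 3.27% of all. Promoters of 2 members are shown, with the element in capitals (TTNCATCA on the other strand).
Asns (chr6:7693210-7693459, minus strand): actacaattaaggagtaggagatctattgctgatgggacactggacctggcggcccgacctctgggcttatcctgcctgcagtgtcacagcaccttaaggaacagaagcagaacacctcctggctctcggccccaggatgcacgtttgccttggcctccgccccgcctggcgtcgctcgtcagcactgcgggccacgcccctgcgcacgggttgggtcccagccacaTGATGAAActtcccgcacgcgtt
Atf3 (chr1:191183334-191183583, minus strand): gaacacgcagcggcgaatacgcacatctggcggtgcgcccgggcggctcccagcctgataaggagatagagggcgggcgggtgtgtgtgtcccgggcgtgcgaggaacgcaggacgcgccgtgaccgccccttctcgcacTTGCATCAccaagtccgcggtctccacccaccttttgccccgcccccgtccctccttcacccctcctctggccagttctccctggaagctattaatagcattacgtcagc

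Asns, the gene of asparagine synthetase, read 2837 and 2722 in the B7-2 wells and 549 and 626 in the BTNL2 wells (log2 change -2.25 ± 0.10, adjusted p = 2.45e-05). Atf3, a stress-induced transcription factor gene, read 1393 and 1269 in the B7-2 wells and 305 and 277 in the BTNL2 wells (log2 change -2.19 ± 0.10, adjusted p = 2.88e-05). Cth, which encodes the enzyme that makes cysteine from cystathionine, read 148 and 156 in the B7-2 wells and 12.0 and 7.36 in the BTNL2 wells (log2 change -4.01 ± 0.21, adjusted p = 4.24e-05). The anti-CD3 wells were intermediate for these 3 genes, at 1756 and 1839, 589 and 638 and 31.1 and 34.4, and the BTNL2 arrays were below them. Nupr1, a stress-response nuclear protein gene, read 631 and 538 in the B7-2 wells and 106 and 102 in the BTNL2 wells (log2 change -2.48 ± 0.10, adjusted p = 1.97e-05). Stc2, a secreted glycoprotein gene that stands in the hypoxia list as well, read 203 and 188 in the B7-2 wells and 20.3 and 27.6 in the BTNL2 wells (log2 change -3.04 ± 0.15, adjusted p = 3.24e-05). Vldlr, a lipoprotein receptor gene, read 69.1 and 65.9 in the B7-2 wells and 9.22 and 11.5 in the BTNL2 wells (log2 change -2.71 ± 0.14, adjusted p = 3.61e-05), or -1.99 after averaging its probe sets. Phgdh, the first enzyme of serine synthesis, did not pass (log2 change -0.31 ± 0.11, adjusted p = 0.101).

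Transporters and synthetases that serve the same supply were lower too, with counts that depended on single arrays. Of 16 amino acid transporter genes 7 fell and 1 rose (median -0.25), and 4 fell without the first and 3 without the second B7-2 array. The call of the rise, which was Slc38a1 (log2 change 0.30), was lost whichever 1 array was left out. Slc7a3, a transporter gene for cationic amino acids, read 331 and 363 in the B7-2 wells and 13.5 and 17.7 in the BTNL2 wells (log2 change -4.48 ± 0.15, adjusted p = 8.99e-06). Slc6a9, a glycine transporter gene, read 502 and 541 in the B7-2 wells and 99.4 and 77.7 in the BTNL2 wells (log2 change -2.57 ± 0.14, adjusted p = 5.2e-05), or -1.44 after averaging its probe sets. Slc7a1, another cationic transporter gene, read 3319 and 3519.6 against 3451 and 3399.6 and did not pass (log2 change 0.003 ± 0.09, adjusted p = 0.986). Of 17 aminoacyl-tRNA synthetase genes 8 fell and 0 rose (0 at an unadjusted p under 0.05, median -0.34). The falls numbered 5 without the first B7-2 array, and 14 with an intensity trend or with 16 added. The synthetase genes for leucine and serine, Lars and Sars, had log2 changes of -0.88 ± 0.09 and -0.79 ± 0.09.

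Lipid genes leaned the same way. Of 19 genes of cholesterol synthesis and uptake 13 fell and 0 rose (0 at an unadjusted p under 0.05, median -0.45), but 5 and 7 fell without the first and second B7-2 array and 6 without the first BTNL2 array. Hmgcs1, which starts the pathway with HMG-CoA, read 124 and 115 in the B7-2 wells and 38.7 and 44.9 in the BTNL2 wells (log2 change -1.52 ± 0.16, adjusted p = 0.000697). Fdft1, the squalene synthase gene, read 559 and 526 in the B7-2 wells and 254 and 292 in the BTNL2 wells (log2 change -0.995 ± 0.10, adjusted p = 0.00064). For both, the anti-CD3 wells lay close to the B7-2 wells, at 112 and 152 and 499 and 501. Of 17 fatty acid genes 8 fell and 0 rose (1 at an unadjusted p under 0.05, median -0.23), and the falls numbered 4, 3 and 3 without the first B7-2, the second B7-2 and the first BTNL2 array, and 5 with the 4 compared arrays alone. Fads2, a desaturase gene of polyunsaturated fatty acids, read 803 and 788 in the B7-2 wells and 202 and 322 in the BTNL2 wells (log2 change -1.64 ± 0.20, adjusted p = 0.00148), and Scd1, the desaturase of saturated ones, read 2068 and 2051 in the B7-2 wells and 1172 and 1373 in the BTNL2 wells (log2 change -0.70 ± 0.10, adjusted p = 0.00364).

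Few genes of the growth machinery were called. Of 24 ribosome biogenesis genes 1 rose and 1 fell, of 21 respiratory chain genes 0 (1 at an unadjusted p under 0.05) and 1, and of 33 DNA replication genes 2 and 2. All 3 shares lie below the 20.4% of all genes that were called, and most of these few calls did not hold without 1 array. The DNA replication rises numbered 0 without any 1 of the 4 compared arrays and its falls 0 or 1 without any 1 of the 6, while the ribosome biogenesis fall was lost without any 1 of the 4 and the respiratory chain fall without any 1 array but the second BTNL2 array. Npm1, a nucleolar chaperone gene, read 5854 and 5645 and 5979 and 5523, and Pcna, the sliding clamp of replication, 4502 and 4489.8 and 4755 and 4782 (log2 changes -0.001 ± 0.09 and 0.09 ± 0.08, adjusted p = 0.997 and 0.55). In ribosome biogenesis the rise was of Ncl, the nucleolin gene (log2 change 0.99 ± 0.10). Of 27 mitosis genes 7 rose and 0 fell (2 at an unadjusted p under 0.05), with a median of 0.16. The share called was 25.9%, near the 20.4% of all genes and the 24.9% of the brightest class, and 0 rose at least 2-fold. Without the first B7-2 array 1 rose, without the second 2, and without either BTNL2 array 3, and under an intensity trend 11 rose. Cell cycle inhibitor genes of the INK4 family rose: Cdkn2b read 14.7 and 12.5 in the B7-2 wells and 49.5 and 41.5 in the BTNL2 wells (log2 change 1.74 ± 0.21, adjusted p = 0.00144) and Cdkn2c read 58.4 and 66.6 in the B7-2 wells and 139 and 137 in the BTNL2 wells (log2 change 1.14 ± 0.10, adjusted p = 0.00032). In the list of cyclins and inhibitors 6 of 20 rose and 0 fell (2 at an unadjusted p under 0.05), or 3 rose without the first BTNL2 array. That is 30% called with all arrays, against 20.4% of all genes. Ccnd2, a cyclin of the entry into the cycle, did not pass (log2 change -0.04 ± 0.09).

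The receptors that restrain or aid T cells split in both directions. Of 26 inhibitory and costimulatory genes 9 rose and 11 fell (median -0.09), and the falls numbered 7 without the first B7-2 or the first BTNL2 array. Among the rises, Cd160, a receptor for the TNF receptor family member HVEM, read 26.5 and 31.03 in the B7-2 wells and 186 and 183 in the BTNL2 wells (log2 change 2.69 ± 0.13, adjusted p = 3.64e-05). Cd96, a receptor for CD155, read 219 and 207 in the B7-2 wells and 1051 and 906 in the BTNL2 wells (log2 change 2.20 ± 0.10, adjusted p = 2.95e-05). Havcr2, which encodes TIM-3, read 88.6 and 78.4 in the B7-2 wells and 194 and 267 in the BTNL2 wells (log2 change 1.45 ± 0.17, adjusted p = 0.00112), with its duplicates further apart than those of the other genes here. Slamf6 and Cd274, the gene of PD-L1, had log2 changes of 1.31 ± 0.11 and 0.82 ± 0.12.

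Among the falls, Lag3, whose product binds MHC class II, read 970.0 and 891 in the B7-2 wells and 226 and 348 in the BTNL2 wells (log2 change -1.73 ± 0.19, adjusted p = 0.000918). Ctla4, which encodes the inhibitory B7 receptor, read 1572 and 1798 in the B7-2 wells and 532 and 540.2 in the BTNL2 wells (log2 change -1.65 ± 0.10, adjusted p = 6.62e-05). Btla, another HVEM receptor gene, read 1121 and 1066 in the B7-2 wells and 424 and 375 in the BTNL2 wells (log2 change -1.46 ± 0.10, adjusted p = 0.000111), and its chromosomal neighbour Cd200, which signals to CD200 receptor on myeloid cells, read 1788 and 2009 in the B7-2 wells and 545 and 449 in the BTNL2 wells (log2 change -1.94 ± 0.12, adjusted p = 7.47e-05). The anti-CD3 wells were above the BTNL2 wells for each of these, with Lag3 and Btla highest there, at 1581 and 1675 and 1459 and 1537. Cd28, the receptor that B7-2 engages for costimulation, read 963 and 1059.9 in the B7-2 wells and 628 and 574 in the BTNL2 wells (log2 change -0.75 ± 0.10, adjusted p = 0.00225), and Cd5, a brake on receptor signals, read 992 and 1004 in the B7-2 wells and 514 and 478 in the BTNL2 wells (log2 change -1.01 ± 0.09, adjusted p = 0.000318). Cd2, an adhesion receptor gene, did not pass (log2 change -0.12 ± 0.08, adjusted p = 0.397).

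**Figure D5:**
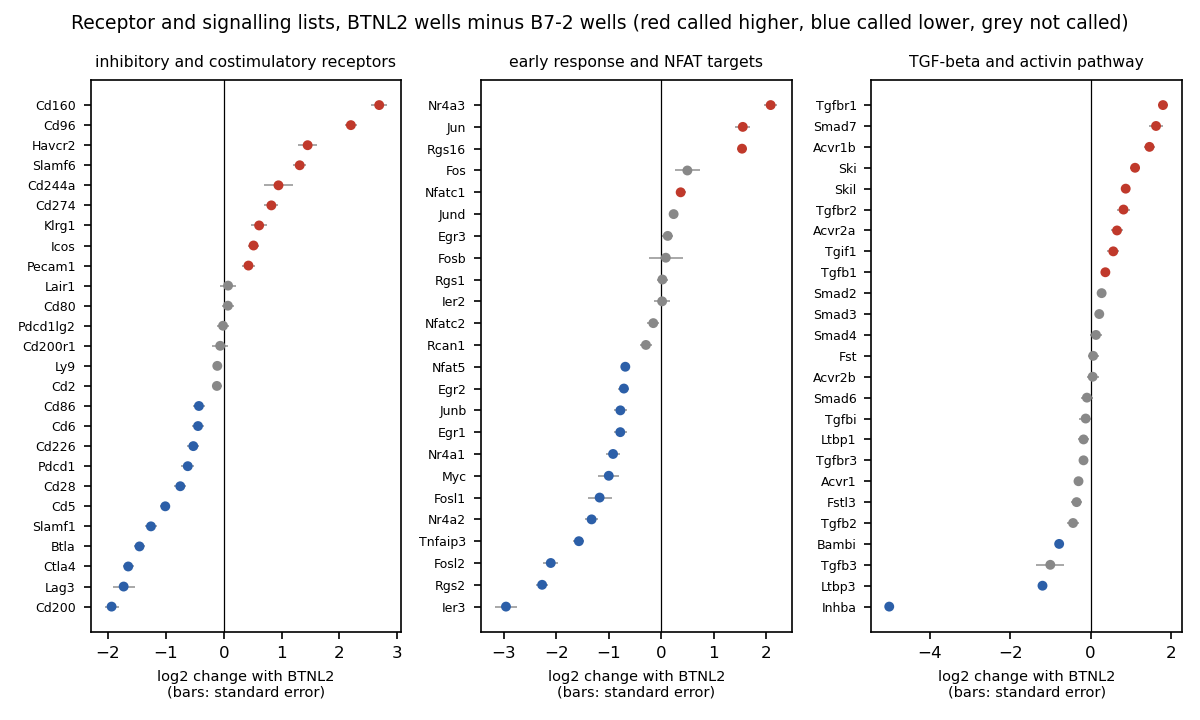
The log2 change with BTNL2 (x axis, bars are the standard error of the limma fit over 2 arrays a group) of each measured gene among inhibitory and costimulatory receptors, early response and NFAT targets, and the TGF-beta and activin pathway. Red points were called higher, blue points lower and grey points not called. Cd160 (2.69) and Cd200 (-1.94) mark the ends of the first panel, Nr4a3 (2.08) and Ier3 (-2.96) those of the second, and Tgfbr1 (1.80) and Inhba (-5.02) those of the third.

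Genes that T cells induce within hours of receptor engagement moved in both directions on day 4. Of 24 early response and NFAT target genes 12 fell, 4 rose and 8 were not called (median -0.49). Ier3, a stress-inducible survival gene, read 647 and 725 in the B7-2 wells and 71.8 and 107 in the BTNL2 wells (log2 change -2.96 ± 0.21, adjusted p = 0.000128). Fosl2, an AP-1 subunit gene, read 647 and 689 in the B7-2 wells and 134 and 178 in the BTNL2 wells (log2 change -2.11 ± 0.14, adjusted p = 0.00011). Rgs2, a brake on G protein signals, read 373 and 332 in the B7-2 wells and 79.6 and 66.5 in the BTNL2 wells (log2 change -2.27 ± 0.12, adjusted p = 4.31e-05), or -1.43 after averaging its probe sets. Against this run, Jun, a partner of Fos proteins in AP-1, read 264 and 243 in the B7-2 wells and 856 and 644 in the BTNL2 wells (log2 change 1.55 ± 0.14, adjusted p = 0.000393), and Rgs16 read 64.2 and 61.6 in the B7-2 wells and 185 and 179.9 in the BTNL2 wells (log2 change 1.54 ± 0.09, adjusted p = 6.73e-05). The NR4A receptors diverged: Nr4a3 had a log2 change of 2.08 ± 0.13 and Nr4a2 one of -1.33 ± 0.12, both called, and 0.70 and -0.67 after averaging their probe sets. The AP-1 motif TGANTCA was in 16.7% of promoters of genes raised at least 4-fold, in 14.4% of those lowered as much and in 7.71% of all.

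Nearer the receptor the changes were smaller. Of 22 genes of the receptor complex and its proximal signalling, 6 rose and 3 fell, with 10 rises under an intensity trend and 1 fall without either B7-2 array or the first BTNL2 array. Of this list 40.9% were called, against 20.4% of all genes. Cd3d, a CD3 chain gene, read 4258 and 4073 and 4588 and 4284 and did not pass (log2 change 0.09 ± 0.09, adjusted p = 0.547). Txk, a TEC family kinase gene, read 13.9 and 10.6 in the B7-2 wells and 81.4 and 71.7 in the BTNL2 wells (log2 change 2.65 ± 0.15, adjusted p = 5.28e-05). Sla2, an adaptor that lowers receptor levels, read 121 and 133 in the B7-2 wells and 353 and 336 in the BTNL2 wells (log2 change 1.44 ± 0.13, adjusted p = 0.000442). Malt1, the protease gene that links the receptor to NF-kappaB, read 659 and 598 in the B7-2 wells and 298 and 284 in the BTNL2 wells (log2 change -1.11 ± 0.09, adjusted p = 0.000311). In the MAP kinase feedback list 4 of 16 rose and 3 fell (43.8% called). Dusp10, a phosphatase gene for p38 and JNK, read 123 and 128 in the B7-2 wells and 882 and 845 in the BTNL2 wells (log2 change 2.78 ± 0.10, adjusted p = 1.18e-05), while the phosphatase genes for ERK, Dusp6 and Dusp4, had log2 changes of -0.85 ± 0.14 and -0.69 ± 0.11. Averaged over its probe sets, Dusp10 changed by 2.11. Rasgrp1, which activates Ras, read 948 and 1039 in the B7-2 wells and 2606 and 2372 in the BTNL2 wells (log2 change 1.32 ± 0.11, adjusted p = 0.000241). In the NF-kappaB list the inhibitor genes Nfkbie and Nfkbiz rose (1.10 ± 0.10 and 1.25 ± 0.20) and Tnfaip3, the A20 gene, fell (-1.57 ± 0.10, or -0.93 after averaging its probe sets). That list had 5 of 19 higher, 2 without the first B7-2 array, 3 without the second or the first BTNL2 array and 8 under an intensity trend, and 2 lower. With all arrays 36.8% of it were called.

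Secreted cytokine genes did not move as a block, with 7 of 24 higher and 10 lower (median -0.33). The type 2 locus on chromosome 11 shows the split, since Il5 and Il13 fell and Il3 and Csf2 rose. Il5, the eosinophil growth factor gene, read 472 and 456 in the B7-2 wells and 21.9 and 37.3 in the BTNL2 wells (log2 change -4.02 ± 0.23, adjusted p = 5.92e-05). Csf2, the GM-CSF gene, read 136 and 143 in the B7-2 wells and 311 and 276 in the BTNL2 wells (log2 change 1.07 ± 0.13, adjusted p = 0.0013). With BTNL2, Il5 overlapped the anti-CD3 wells (28.9 and 33.7), and Csf2 was above both other groups (25.8 and 31.9 in the anti-CD3 wells). Ifng, the interferon gamma gene, read 1295 and 1216 in the B7-2 wells and 2900 and 2530 in the BTNL2 wells (log2 change 1.11 ± 0.12, adjusted p = 0.000837). It read 242 and 286 in the anti-CD3 wells. Il9, a mast cell growth factor gene, read 319 and 307 in the B7-2 wells and 2542 and 1557 in the BTNL2 wells (log2 change 2.67 ± 0.21, adjusted p = 0.000202). Il21, a helper cytokine gene for B cells, read 333 and 282 in the B7-2 wells and 11.7 and 22.6 in the BTNL2 wells (log2 change -4.24 ± 0.28, adjusted p = 0.000107), or -3.36 after averaging its probe sets. Il24, a member of the IL-10 family, read 3730.4 and 3674 in the B7-2 wells and 629.8 and 921 in the BTNL2 wells (log2 change -2.28 ± 0.17, adjusted p = 0.000162). Among receptors for interleukins 9 of 18 rose and 2 fell. The chains of the IL-18 receptor, Il18r1 and Il18rap, rose by 2.49 ± 0.24 and 2.42 ± 0.17. The decoy receptor gene Il1r2 read 99.7 and 103 in the B7-2 wells and 26.1 and 28.2 in the BTNL2 wells (log2 change -1.90 ± 0.10, adjusted p = 3.71e-05), and Il12rb2, a chain of the IL-12 receptor, 141 and 133 in the B7-2 wells and 51.5 and 70.6 in the BTNL2 wells (log2 change -1.18 ± 0.16, adjusted p = 0.0023).

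Ligands of the TNF family leaned upward. Of 13 measured, 8 rose and 0 fell (1 at an unadjusted p under 0.05, median 0.57), or 5 rose without the first BTNL2 array. Tnfsf11, the RANK ligand gene, read 247 and 261 in the B7-2 wells and 835 and 698 in the BTNL2 wells (log2 change 1.59 ± 0.13, adjusted p = 0.000236). Ltb, the lymphotoxin beta gene, read 98.95 and 81.4 in the B7-2 wells and 307 and 227 in the BTNL2 wells (log2 change 1.56 ± 0.16, adjusted p = 0.000691), and Tnfsf10, which encodes the death ligand TRAIL, 88.96 and 106 in the B7-2 wells and 261 and 278 in the BTNL2 wells (log2 change 1.47 ± 0.14, adjusted p = 0.000438). Tnfsf11 was lowest in the anti-CD3 wells (64.3 and 54.3), whereas Ltb matched the BTNL2 wells there (285 and 285). Of the receptors, Fas, a death receptor gene, had a log2 change of 1.05 ± 0.09 and Cd40 one of 1.55 ± 0.13. Of 22 apoptosis regulator genes 5 rose, 1 fell and 16 were not called, which is 27.3% called against 20.4% of all genes. The rises numbered 2 or 3 when 1 array was left out. Bcl2l11, which encodes the pro-apoptotic BIM, read 114 and 107 in the B7-2 wells and 863 and 683 in the BTNL2 wells (log2 change 2.79 ± 0.13, adjusted p = 2.58e-05), and the survival gene Bcl2 rose as well, by 0.66 ± 0.10.

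Genes that make or sense extracellular nucleotides and prostaglandins moved with BTNL2. Of 12 measured, 7 rose and 2 fell, with a median of 0.78. The ectoenzyme genes CD39 and CD73, which turn ATP into adenosine, both rose: Entpd1 (CD39) read 29.3 and 30.7 in the B7-2 wells and 63.5 and 63.0 in the BTNL2 wells (log2 change 1.08 ± 0.11, adjusted p = 0.000539) and Nt5e (CD73) read 50.9 and 46.4 in the B7-2 wells and 257 and 204 in the BTNL2 wells (log2 change 2.23 ± 0.13, adjusted p = 5.92e-05). Averaged over its probe sets, Nt5e changed by 0.85. P2rx7, an ATP-gated channel gene, read 51.9 and 64.7 in the B7-2 wells and 146 and 181 in the BTNL2 wells (log2 change 1.49 ± 0.16, adjusted p = 0.000861). P2ry14, a receptor gene for UDP-sugars, was dim without BTNL2 and read 6.87 and 7.0 in the B7-2 wells and 35.5 and 42.2 in the BTNL2 wells (log2 change 2.48 ± 0.18, adjusted p = 0.000134). In the anti-CD3 wells Nt5e and P2rx7 were as high as in the BTNL2 wells (240.5 and 228, and 166 and 138), and P2ry14 was not (8.42 and 12.1). The prostaglandin E2 receptor genes split, with Ptger4 at 0.74 ± 0.10 and Ptger2 at -0.83 ± 0.11.

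All wells held TGF-beta, and the genes of its pathway shifted at several levels. Of 25 measured, 9 rose and 3 fell (median 0.07), or 5 rose without the first B7-2 array and 5 fell without the second. The ligand gene Inhba, which encodes an activin subunit, read 333 and 358 in the B7-2 wells and 11.1 and 10.3 in the BTNL2 wells (log2 change -5.02 ± 0.09, adjusted p = 3.17e-06), or -2.55 after averaging its probe sets. The receptor genes Tgfbr1 and Acvr1b rose: Tgfbr1 read 334 and 363 in the B7-2 wells and 1335 and 1109 in the BTNL2 wells (log2 change 1.80 ± 0.12, adjusted p = 0.000111), or 0.93 averaged likewise, and Acvr1b 68.9 and 79.2 in the B7-2 wells and 229.8 and 182 in the BTNL2 wells (log2 change 1.47 ± 0.13, adjusted p = 0.000397). The inhibitors of SMAD signalling Smad7, Ski and Skil rose by 1.63 ± 0.18, 1.11 ± 0.12 and 0.88 ± 0.10. The pseudoreceptor gene Bambi fell (-0.78 ± 0.11). Tgfbr3, a co-receptor gene, did not pass (log2 change -0.18 ± 0.11).

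Foxp3 and Itgae, which TGF-beta is known to induce in T cells, both rose. Foxp3 read 70.3 and 77.5 in the B7-2 wells and 299.5 and 306 in the BTNL2 wells (log2 change 2.04 ± 0.12, adjusted p = 6.59e-05), and the integrin gene Itgae, which encodes the CD103 receptor for E-cadherin, read 33.1 and 40.4 in the B7-2 wells and 169.6 and 93.3 in the BTNL2 wells (log2 change 1.78 ± 0.26, adjusted p = 0.00356). Cdh1, the E-cadherin gene, went from the lower end of the scale, with 5.88 and 4.97 in the B7-2 wells and 233 and 102 in the BTNL2 wells (log2 change 4.83 ± 0.34, adjusted p = 0.000123), and its change was 4.23 without the first and 5.43 without the second BTNL2 array. Of 24 regulatory T cell genes 11 rose and 7 fell, with a median of -0.00. Besides Foxp3, Entpd1 and Nt5e, the rises took in Ikzf2, the Helios gene (1.40 ± 0.26, or 0.77 after averaging its probe sets). The falls took in the inhibitory genes Lag3, Ctla4 and Il10 (-1.37 ± 0.16) and Ebi3, an IL-35 subunit gene (-1.21 ± 0.10). Il2ra, which encodes CD25, did not pass (log2 change -0.16 ± 0.08, adjusted p = 0.253).

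Adhesion and resting-cell genes also rose in part. Of 24 adhesion genes 7 rose and 2 fell, or 1 fell without any 1 array but the first B7-2 array. Of this list 37.5% were called, and 45.8% and 47.6% of the matrix and the resting-cell list below. The share was 20.4% over all genes and 32.2% and 34.9% in the middle and next intensity classes. Itgb3, the beta chain gene of the vitronectin receptor, read 231 and 202 in the B7-2 wells and 918 and 1000.2 in the BTNL2 wells (log2 change 2.15 ± 0.10, adjusted p = 3.15e-05), and Itga6, a laminin receptor chain gene, read 193 and 188 in the B7-2 wells and 722 and 549 in the BTNL2 wells (log2 change 1.72 ± 0.14, adjusted p = 0.000263). For both, the anti-CD3 wells were above the B7-2 wells (780.4 and 767, and 359 and 318). Of 24 matrix and protease genes 8 fell and 3 rose. Timp1, an inhibitor of matrix proteases, read 2043 and 1779 in the B7-2 wells and 89.3 and 126 in the BTNL2 wells (log2 change -4.17 ± 0.17, adjusted p = 1.8e-05), while the cathepsin genes diverged, with Ctss at 1.01 ± 0.14 and Ctsl at -1.25 ± 0.15. Of 21 naive and resting T cell genes 8 rose and 2 fell (median 0.33). Without the second B7-2 or the second BTNL2 array 0 fell, without the first BTNL2 array 4 fell, and the rises numbered 6 to 10 when 1 array was left out. Slfn1, a Schlafen gene of quiescent thymocytes, read 135 and 136 in the B7-2 wells and 1449.6 and 1044 in the BTNL2 wells (log2 change 3.18 ± 0.15, adjusted p = 3.15e-05), with 1372 and 1298 in the anti-CD3 wells, and Igfbp4, which encodes a binding protein of insulin-like growth factors, read 363 and 404 in the B7-2 wells and 904 and 839 in the BTNL2 wells (log2 change 1.19 ± 0.11, adjusted p = 0.00036).

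The labelled cell type was checked against its markers. Cd3d and Cd4 were bright on all arrays, and Cd4 read 1407 and 1319.8 in the B7-2 wells and 1103 and 1159 in the BTNL2 wells (log2 change -0.27 ± 0.09, adjusted p = 0.0935). Cd4 was called lower with 16 added before taking logs (adjusted p = 0.0318), under an intensity trend (adjusted p = 0.00601) and after averaging its probe sets (log2 change -0.41, adjusted p = 0.0258). Of 14 CD4 T cell identity genes 3 rose (Bcl11b, Lat and Thy1), or 1 without any 1 of the 4 compared arrays, and 3 fell (Cd5, Cd6 and Cd28). Their summed intensity was 25697 and 25866 in the B7-2 wells and 27342 and 27028 in the BTNL2 wells. All 9 CD8 T cell markers rose, against 9.52% of all genes. Their sum went from 659 and 674 to 3775 and 3247, with 1098 and 1129 in the anti-CD3 wells. Most of this rise in the sum came from Eomes and Cd8a. Cd8a, the CD8 alpha chain gene, read 119 and 107 in the B7-2 wells and 987 and 924 in the BTNL2 wells (log2 change 3.08 ± 0.10, adjusted p = 8.41e-06). Of 16 NK and innate lymphoid markers 7 rose, with sums of 357 and 388 and 1196 and 1121, but the defining marker Ncr1 stayed at the lower end (5.24 and 4.75 against 6.62 and 5.76) and Klrb1c did not pass (log2 change 0.30 ± 0.13, adjusted p = 0.175). Of 5 gamma-delta T cell markers 2 rose, or 1 without the first B7-2 or the first BTNL2 array. Nearly all of their summed change came from Trgv1, a variable segment gene of the gamma chain, which read 16.6 and 14.5 in the B7-2 wells and 875 and 673 in the BTNL2 wells (log2 change 5.63 ± 0.14, adjusted p = 4.76e-06). Cd163l1, another of these markers, did not pass (log2 change 0.003 ± 0.09, adjusted p = 0.989).

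Of 19 B cell markers 8 rose and 2 fell, with sums of 3651 and 3819 and 4803 and 5868, below the 7589.7 and 6765 of the anti-CD3 wells. Of these markers 52.6% were called, against 20.4% of all genes. Ms4a1, the CD20 gene, read 95.3 and 97.8 in the B7-2 wells and 280.2 and 384 in the BTNL2 wells (log2 change 1.76 ± 0.15, adjusted p = 0.000283), while the defining factor gene Pax5 was near the lower end (7.3 and 8.01 against 6.33 and 7.5) and Ebf1 fell (-1.43 ± 0.13). The MHC class II genes of this list went both ways. H2-Aa, the alpha chain gene of I-A, read 128 and 131 in the B7-2 wells and 292 and 329 in the BTNL2 wells (log2 change 1.26 ± 0.12, adjusted p = 0.000508), and Cd74, the invariant chain gene, 863 and 1004 in the B7-2 wells and 1873 and 2158 in the BTNL2 wells (log2 change 1.11 ± 0.12, adjusted p = 0.00083). H2-Eb1 and H2-DMb2 also rose, by 1.16 ± 0.12 and 1.19 ± 0.09. H2-Ab1, the beta chain gene that pairs with H2-Aa, read 1270.6 and 1236 in the B7-2 wells and 621 and 939 in the BTNL2 wells (log2 change -0.71 ± 0.19, adjusted p = 0.0368). Its call was lost without any 1 array but the second BTNL2 array (adjusted p = 0.0564 to 0.132). Of 23 myeloid and dendritic markers 1 rose and 1 fell (0 to 2 and 1 to 2 when 1 array was left out), and of 13 mast cell, basophil and eosinophil markers 0 and 0 (2 and 0 at an unadjusted p under 0.05). In bulk RNA, more cells of a type and more RNA per cell cannot be told apart, and the part of other cells in the rises of Eomes, Cd8a, Cd160, Cd96 and the Klr genes was not tested.

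Cytotoxic genes rose beside the CD8 markers. Of 20 measured, 12 rose and 2 fell (median 0.60), against 9.52% of all genes higher and 10.8% lower. The 2 lists share members, among them Eomes and Crtam. Gzma, the granzyme A gene, read 1869 and 1900.4 in the B7-2 wells and 4828 and 5411 in the BTNL2 wells (log2 change 1.44 ± 0.10, adjusted p = 0.000134). Gzmc, a granzyme gene of the same family, read 252 and 239.7 in the B7-2 wells and 2189.7 and 2644 in the BTNL2 wells (log2 change 3.29 ± 0.15, adjusted p = 2.82e-05). Gzme was uneven, at 35.5 and 27.3 in the B7-2 wells and 77.9 and 283 in the BTNL2 wells, and its change of 2.25 was 3.18 without the first and 1.32 without the second BTNL2 array and was not called without either B7-2 array. Ctsw, a cathepsin gene of killer cells, read 446 and 410.3 in the B7-2 wells and 3274 and 2771 in the BTNL2 wells (log2 change 2.81 ± 0.11, adjusted p = 1.8e-05), with 2416 and 2582 in the anti-CD3 wells. The 2 falls were of Serpinb6b, a granzyme inhibitor gene (-0.50 ± 0.09), and of Srgn, the granule proteoglycan gene (-0.38 ± 0.08), whose call was lost without any 1 of the 4 arrays. The family genes Ms4a4b and Ms4a4c, which encode four-span membrane proteins of T cells, rose by 5.05 ± 0.12 (2.93 after averaging its probe sets) and 2.92 ± 0.11.

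Many changed genes lay next to each other on the chromosomes. The order of 17055 measured genes was taken from the RefSeq GRCm38.p6 gene table. Of 425 placed genes that rose at least 2-fold, 73 (17.2%) had a direct neighbour that also did, whereas 4.83% of all genes had such a neighbour. Of 460 that fell at least 2-fold, 71 (15.4%) had a neighbour that also did, against 5.24% of all. Runs of 4 rises were Apol7a, Apol9a, Apol7b and Apol7c on chromosome 15, and Gbp7, Gbp3, Gbp2b and Gbp2 on chromosome 3. The run of 4 falls was Armcx4, Armcx1, Armcx6 and Armcx3 on the X chromosome. On chromosome 11 Il13, Rad50 and Il5 fell side by side. Other pairs and triplets were Ifit2, Ifit3 and Ifit1bl1, H2-DMa, H2-DMb2 and H2-DMb1, Il18r1 and Il18rap, and the falling Ccn4, Ndrg1 and St3gal1. Gene families in tandem share sequence and can share probe signal, so neighbours of 1 family are not independent observations. These runs were picked out after their values were seen.

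The arrays were alike after RMA, which itself makes their distributions alike. Median intensities were 18.4 to 18.8 on all 6, duplicates correlated at r = 0.997 to 0.998 across genes, and the BTNL2 and B7-2 arrays at 0.978 to 0.983. The ratio of 3′ to 5′ signal of Gapdh, a sign of RNA integrity, reached 1.40 and 1.43 with BTNL2 and lay at 1.27 to 1.37 in the other wells, and that of actin was 1.67 to 1.92 with no such order. The part of this difference in the results was not tested.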

How the data were processed

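RNA levels were read on 6 arrays with 1 colour each, 2 a group. From 50 ng of RNA, biotin-labelled material was made with NuGen Ovation V2, per the labels' protocols. The deposited values are probe set intensity values on a linear scale, made by the authors with RMA (robust multi-array average) per the submitters' processing notes. Its version is not given in the sources used here. RMA makes the distributions of arrays alike, so a change shared by most transcripts would not be seen, and it compresses dim signals.

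Of 45141 probe sets, 104 controls were left out. By the platform annotation 28898 had 1 symbol, 551 several and 15588 none, and 28689 symbols were updated by Entrez identifier. A gene was represented by its probe set of highest mean, which gave 17097 genes. The design had assumed log2 values, so intensities were log2 transformed. All 6 arrays entered 1 limma fit (limma 3.58.1, R 4.3.3, lmFit and eBayes) with 3 residual and 4.02 prior degrees of freedom and no replicate block. Tests were two-sided with Benjamini-Hochberg adjustment over all genes, and the smallest fold called was 1.23. The procedure was tested on simulated data. Nothing in the labels links same-numbered arrays of different groups. The number of arrays limits the precision.

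The comparison, the 50 gene lists and the rule for naming genes were chosen with earlier results of these data known. Named genes are the 20 largest rises and falls among called genes without overlap, leaving out predicted genes and clones, the 10 brightest changed at least 2-fold in each direction, in each list up to 6 called members each way and the brightest one not called, and Cd4, Cd8a, Foxp3, Foxo1, Klf2, Ctla4, Il2, Il2ra, Il10 and Ifng. Ncr1 and Pax5 are named as defining markers. Promoter sequences and gene order are RefSeq's for GRCm38.p6, and a gene with several starts held a motif if any window did.

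Alternatives changed the offset, the variance prior, the arrays fitted, the scaling, the filter on dim genes, the probe sets per gene, the replicate block and each array in turn.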

Additional observations from a re-analysis of the deposited data

Results flagged for a closer look

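Of the 15588 probe sets without a gene symbol in the annotation used here, which entered no comparison above, 34 were called at least 4-fold higher and 34 at least 4-fold lower in the BTNL2 wells. In all, 9.78% of these probe sets were called, against 20.4% of the genes. Of the genes, 0.678% were at least 4-fold higher and 0.661% at least 4-fold lower. The probe sets without a symbol were singled out because they carry signal outside the genes that were analysed. The probe set with the largest rise among them had a log2 change of 5.12, with intensities of 16.9 and 23.1 in the B7-2 wells and 815 and 577 in the BTNL2 wells. This difference is larger than the spread between duplicates, and what the probe set detects is not known here.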

How the results depend on the processing

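Of the 360 genes chosen by rule, 314 were called and 237 of these were called under every one of the 15 alternatives that tested them, and 0 changed sign as a call. Leaving out 1 array gave 2142 to 3015 called genes in all, 1013 to 1404 higher and 1125 to 1611 lower. Testing every probe set gave 2451 called higher, since more features were tested, and asking for a 2-fold change as well left 888 calls. Other settings gave 3015 to 4412 calls. A variance prior that follows intensity gave 4412, of which 3367 were among the 3482. Averaging the probe sets of a gene gave 3446, with 2968 shared, and moved 29 of the 360 genes by over 1.5-fold. In every setting the shared calls had the same direction.

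Same-numbered arrays did not deviate together (correlations of replicate differences between groups -0.064, -0.001 and -0.027). With a single difference in each group, this cannot settle whether equal numbers mark a shared animal or day. With a replicate block 3160 genes were called, 3062 of them shared, and 11 of the 360 genes lost their call. With 2 arrays a group, small changes were often lost when 1 array was left out: 59 and 55 of the 360 without the first and second B7-2 array and 56 and 33 without the first and second BTNL2 array.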
